A study of Mus musculus with 6 samples.

Results

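The genes that add a phosphate to glucose, take it off again or carry glucose 6-phosphate into the endoplasmic reticulum were examined in mouse pancreatic islets. Members were picked by symbol: Hk1, Hk2, Hk3, Hkdc1, Gckr, G6pc2, G6pc3, Slc37a4 and Adpgk, 9 of the 46983 genes in the table of read counts. Of these 9, 8 passed the filter on low counts and Gckr did not. Wild Type islets were kept in CMRL medium for 24 h at a low (non-stimulating) glucose concentration (3 libraries) or at a high (stimulating) one (3 libraries), and polyadenylated RNA was sequenced. The sources used here do not give the glucose concentrations, the strain, the age or sex of the mice, or how many animals stand behind a library. Since nothing says that libraries came from separate animals or cultures, each p-value reflects just the spread among the libraries at hand, which may be technical.

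Hexokinases trap glucose in the cell as glucose 6-phosphate, and in beta cells the rate of this step ties insulin release to blood glucose. Hexokinases 1, 2 and 3 have a high affinity for glucose, and beta cells normally keep Hk1 low. Glucose-6-phosphatases reverse the step inside the endoplasmic reticulum, which the sugar phosphate enters through the carrier encoded by Slc37a4. G6pc2 encodes the islet form of the phosphatase and G6pc3 the form found in most tissues.

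Library totals ranged from 10596020 to 15846235 counts. The 13 acinar markers (genes of the exocrine pancreas) took 34.7% to 46.2% of the counts at low and 9.13% to 18.1% at high glucose. The 20 hormone and granule genes took 2.35% to 4.98% and 4.12% to 11.0%. In each group replicate 1 stood apart with the highest share of these islet genes. Levels are given as CPM, counts scaled to libraries of 1000000 after TMM (trimmed mean of M-values) correction, which sets the middle of all log ratios near 0. Scaling by library totals instead moved the median log2 fold change over the tested genes from 0.01 to 1.16, so each direction below is relative to that middle. Fewer cells of a type and less RNA per cell cannot be told apart in such bulk libraries.

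The clearest changes among the members were in neighbouring genes on chromosome 10, Hk1 (higher) and Hkdc1 (lower). Their upstream sequences are shown for that reason, beside those of Hk2 and G6pc2. Whether the changes are linked was not tested. Hk1 (chr10:62268855-62379908, minus strand, GRCm38) and Hkdc1 (chr10:62383137-62422491, minus strand) lie 3228 bases apart and are read in the same direction. The sequences are from RefSeq on GRCm38.p6. They run 5′ to 3′ on the gene's strand, begin 250 bases before the annotated start and stop at the first annotated exon base. Capitals mark GCGTG or ACGTG on either strand, which are core motifs of hypoxia-inducible factors.
Hk1, upstream start (chr10:62379909-62380158): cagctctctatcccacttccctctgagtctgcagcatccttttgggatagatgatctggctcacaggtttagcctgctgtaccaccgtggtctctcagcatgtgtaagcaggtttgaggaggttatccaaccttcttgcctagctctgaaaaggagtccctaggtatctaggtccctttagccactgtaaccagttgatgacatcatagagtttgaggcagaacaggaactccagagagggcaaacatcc
Hkdc1 (chr10:62422492-62422707): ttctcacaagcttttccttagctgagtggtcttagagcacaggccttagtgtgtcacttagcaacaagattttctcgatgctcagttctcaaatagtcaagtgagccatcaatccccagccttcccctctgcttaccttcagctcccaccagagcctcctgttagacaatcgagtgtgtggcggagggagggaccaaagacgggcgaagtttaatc
Hk2 (chr6:82774455-82774704, minus strand): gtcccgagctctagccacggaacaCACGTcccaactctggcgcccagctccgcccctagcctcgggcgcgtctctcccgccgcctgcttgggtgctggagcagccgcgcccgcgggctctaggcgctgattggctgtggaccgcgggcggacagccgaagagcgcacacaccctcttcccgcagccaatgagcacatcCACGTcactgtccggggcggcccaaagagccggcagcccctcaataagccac
G6pc2, first start (chr2:69210823-69211072, plus strand): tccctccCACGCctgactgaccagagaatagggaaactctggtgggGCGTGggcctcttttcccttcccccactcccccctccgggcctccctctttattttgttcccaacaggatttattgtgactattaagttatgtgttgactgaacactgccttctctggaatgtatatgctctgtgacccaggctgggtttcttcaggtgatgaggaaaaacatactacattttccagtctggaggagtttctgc

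The full 250-base windows were searched on both strands. The E-box core CACGTG, bound among others by the glucose-responsive factor ChREBP, was found in 6.02% of all 32851 promoter windows of this length. The motif ACGTG, which overlaps the E-box core, was found in 16.6% of them and GCGTG in 28.2%. The AP-1 motif TGACTCA was found in 4.46%. Among the members G6pc3 alone held the E-box core, at 99 and at 79 bases before its start. The windows of Hkdc1, Gckr and Slc37a4 and the upstream start of Hk1 held no match to any of these motifs, while the second annotated start of Hk1, inside the gene, held 3 matches to GCGTG. Gene counts do not say which start was used. A match describes letters only.

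**Figure D1:**
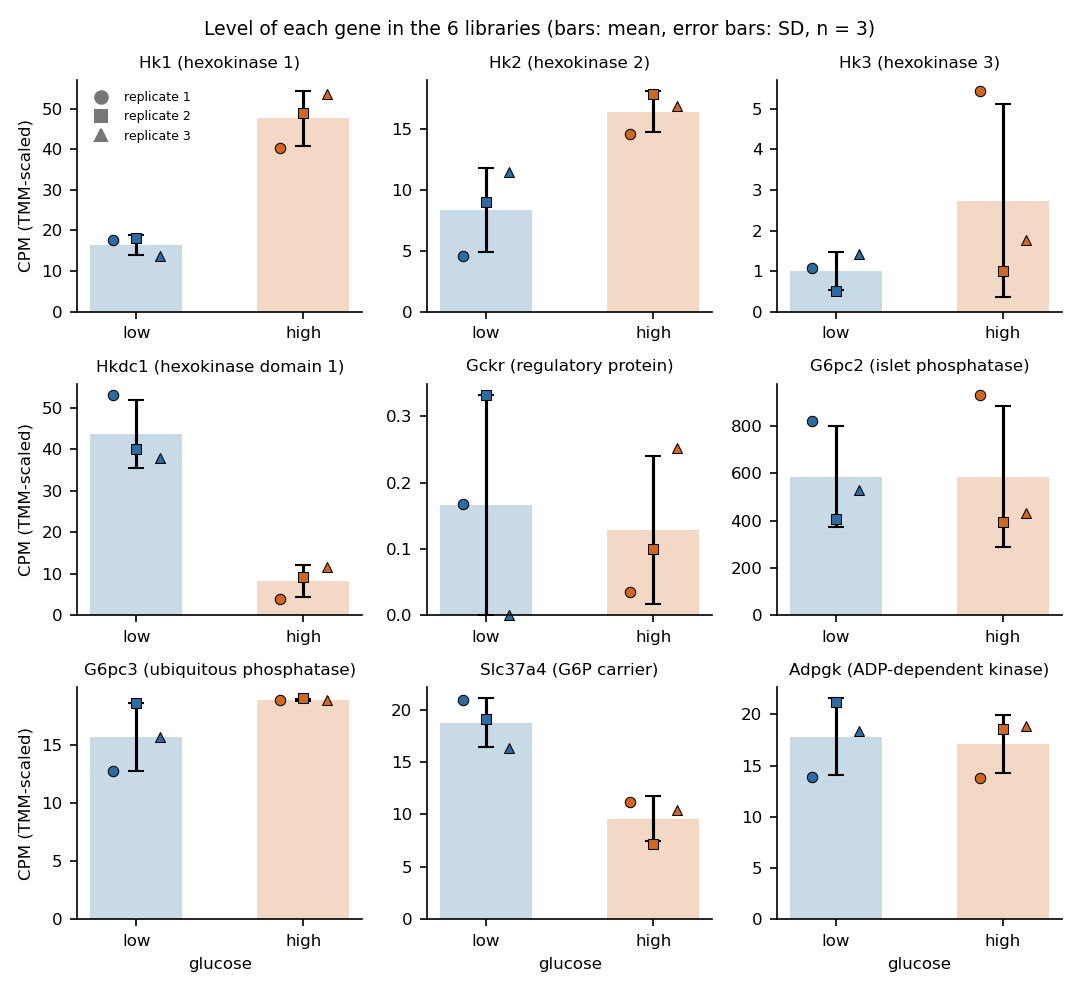
TMM-scaled CPM (vertical axes, from 0, a separate scale per gene) of the 9 genes at low and high glucose, with 1 symbol per replicate number, bars for the mean and error bars for the SD of 3 libraries. The groups lie clear of each other for Hk1, Hk2 and G6pc3 (high glucose above) and for Hkdc1 and Slc37a4 (high glucose below), and replicate 1 stands highest for G6pc2 in both groups.

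By edgeR's quasi-likelihood test, with Benjamini-Hochberg adjustment over all 13996 tested genes, 1 of the 8 tested members rose and 2 fell at high glucose. Among all tested genes 13.3% rose and 14.2% fell, so the number of called members was near the background. The groups did not overlap in CPM for 5 of the 8, against 45.9% of all tested genes.

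Hk1 encodes the hexokinase of brain and red cells. It had 17.6, 18.1 and 13.7 CPM in low glucose replicates 1 to 3 and 40.3, 48.8 and 53.6 CPM in high glucose replicates 1 to 3. Every high glucose library lay above every low glucose one. The rise was 2.89-fold, a log2 fold change of 1.53 ± 0.18 (SE; edgeR adjusted p = 0.00169). It passed under each of the 15 other settings tried and without both replicates 1, with values from 1.42 (without low glucose replicate 3) to 2.64 (library totals). Of the 6 duct markers 4 (Spp1, Krt7, Krt8 and Krt19) rose as well, beside 13.3% of all tested genes. Cftr (-2.29, edgeR adjusted p = 0.0579) and Sox9 (-0.17, edgeR adjusted p = 0.833) had lower values that did not pass. The summed level of the 6, 476 to 538 CPM at low and 3726 to 4962 CPM at high glucose, was mostly Spp1 and the keratins. Their part in the rise of Hk1 was not tested. The antisense gene Hk1os shares 157 exonic bases (1.84%) with Hk1, and reads there cannot be told apart, since the sources used here give no strand setting for the counting.

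Hkdc1 encodes a hexokinase domain protein, the fifth of the mammalian family. It had 53.2, 40.0 and 38.0 CPM in low glucose replicates 1 to 3 and 4.03, 9.22 and 11.7 CPM in high glucose replicates 1 to 3. All 3 high glucose libraries lay far below the low glucose ones. The level fell by 2.40 ± 0.38 on the log2 scale (5.29-fold lower; edgeR adjusted p = 0.00465). The fall also passed under all 15 other settings and without both replicates 1, from -1.36 with library totals to -2.73 without high glucose replicate 3.

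Markers of other cell types fell with Hkdc1. All 7 tested markers of intestinal epithelium, of 10 in the list, fell, beside 14.2% of all tested genes. The summed level of the 10 was 1474 to 4952 CPM at low and 21.1 to 144 CPM at high glucose. Of the defining markers the sucrase-isomaltase gene Sis was at 0 in high glucose replicates 2 and 3. Such genes passed the filter on low counts only through the low glucose libraries. The count of 7 was thus partly set by the filter and carries no weight as a test. Within the high glucose group the library with the most intestinal marker RNA, replicate 1 (144 CPM), had the least Hkdc1. The acinar list fell in 11 of 13 cases, beside 14.2% of all tested genes. Its sum was 368838 to 814444 CPM at low and 51114 to 132099 CPM at high glucose. Through the TMM correction these sums are not shares of a library. As shares of counts the acinar markers made up 34.7% to 46.2% at low and 9.13% to 18.1% at high glucose. In the low glucose group replicate 1 had the most Hkdc1 and the highest intestinal sum (4952, 3842 and 1474 CPM in replicates 1 to 3). Replicates 2 and 3 differed in that sum but hardly in Hkdc1 (40.0 and 38.0 CPM, from 241 and 242 counts). Replicate 1 also had the least acinar RNA of the low glucose group. At high glucose the acinar sums were 51114, 132099 and 125388 CPM in replicates 1 to 3, and replicate 1 had the least Hkdc1. The part of either tissue in the fall was not tested.

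Set side by side within a library, where no scaling enters, Hk1 and Hkdc1 stood in opposite order in the low and high glucose groups. At low glucose there were 3.03, 2.21 and 2.78 Hkdc1 reads per Hk1 read in replicates 1 to 3. At high glucose there were 10, 5.29 and 4.57 Hk1 reads per Hkdc1 read. This ratio was formed after the values had been seen, so it carries no test. Per exonic length, among Hk1, Hk2, Hk3 and Hkdc1 only and not among all enzymes of the family, Hkdc1 went from 69.9% ± 6.07 to 14.8% ± 5.71 and Hk1 from 15.9% ± 2.18 to 52.0% ± 1.67 (SD, n = 3 each). The share of Hk2 was 11.9% ± 5.71 at low and 25.8% ± 1.97 at high glucose, with no overlap of the libraries.

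**Figure D2:**
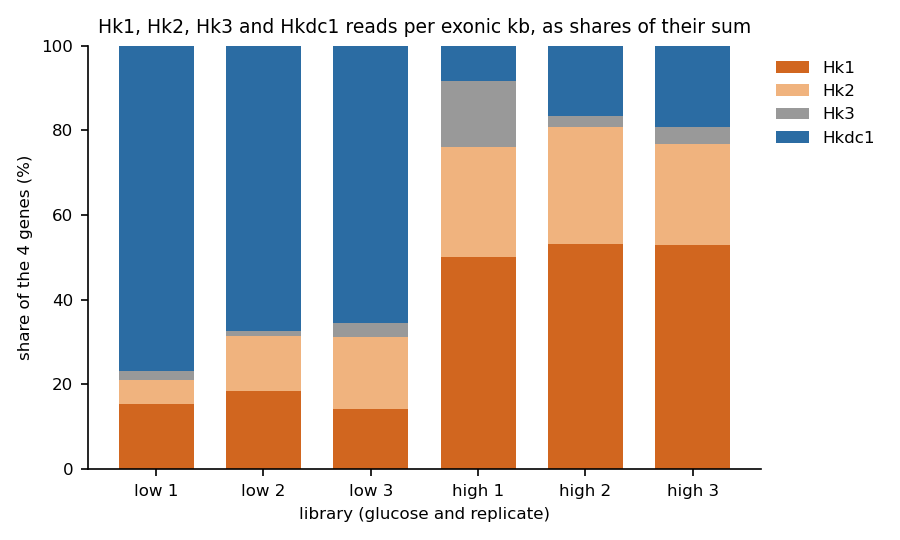
Share (%, vertical axis) of Hk1, Hk2, Hk3 and Hkdc1 in the sum of their reads per exonic kilobase, 1 bar for each of the 6 libraries. Hkdc1 holds 65.5% to 76.8% of each low glucose bar and 8.33% to 19.2% of each high glucose bar, while Hk1 holds 14.2% to 18.4% and 50.1% to 53.1%.

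Hk2 encodes the inducible hexokinase of muscle and fat. Its levels were 4.60, 8.96 and 11.5 CPM in low glucose replicates 1 to 3, against 14.6, 17.8 and 16.9 CPM in the high glucose ones. The libraries did not overlap, but the low glucose values spread widely. The log2 fold change of 1.00 ± 0.32 (95% interval 0.25 to 1.75) missed the threshold with an edgeR adjusted p of 0.0548. With the replicate number as a block, a fit in which 15.7% of all genes rose and 17.7% fell, Hk2 passed (1.07 ± 0.25, edgeR adjusted p = 0.0189). DESeq2 (adjusted p = 0.0192) and limma-voom (adjusted p = 0.0345) called it too. So did the edgeR fit with no filter on low counts (1.10) and those without low glucose replicate 3 (1.31), high glucose replicate 1 (1.09) or both replicates 1 (0.77). Without low glucose replicate 1 or 2 Hk2 was not called (edgeR adjusted p = 0.0657 and 0.127). Nor was it without high glucose replicate 2 or 3 (edgeR adjusted p = 0.127 and 0.138). With libraries sized by the hormone and granule genes it was not called either (edgeR adjusted p = 0.0863).

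Hk3 is the hexokinase of white blood cells. It had 1.09, 0.498 and 1.41 CPM in low glucose replicates 1 to 3 and 5.44, 0.997 and 1.76 CPM in high glucose replicates 1 to 3, from 3 to 154 counts. A single library, high glucose replicate 1, stood out, and the groups overlapped. The log2 fold change of 1.44 ± 0.71 did not pass (edgeR adjusted p = 0.169) and was 0.44 without that library. The same library had the highest summed level of the 9 macrophage and neutrophil markers in its group, 163 CPM against 21.4 and 45.4 CPM, while the low glucose libraries had 116 to 179 CPM. In that list 1 of 8 tested genes rose, Cd68, beside 13.3% of all tested genes. Lyz2, Adgre1, Csf3r, Ptprc, Csf1r and Itgam had lower values, from -1.42 (Lyz2) to -0.51 (Itgam), that did not pass. S100a9 had a higher value that did not pass (0.49). The part of these markers in the Hk3 values was not tested.

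Adpgk encodes a kinase that uses ADP in place of ATP to phosphorylate glucose. Its 13.9, 21.2 and 18.4 CPM at low glucose (replicates 1 to 3) overlapped with 13.8, 18.6 and 18.9 CPM at high glucose. The log2 fold change was -0.06 ± 0.22 (edgeR adjusted p = 0.872), with a 95% interval of -0.57 to 0.46. Gckr, which encodes a regulator of glucose phosphorylation in liver, had 2, 2 and 0 counts in the low and 1, 2 and 5 counts in the high glucose libraries. The ratio of high to low glucose after TMM scaling was 0.714 (exact 95% interval 0.191 to 3.24, for counting error only), and with library totals it was 1.57 (0.42 to 7.12). Both intervals include 1, so a change was not detectable at this depth.

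On the side that removes the phosphate, G6pc2 (chr2:69211073-69227841, plus strand) was by far the most abundant member. It had 821, 408 and 530 CPM in low glucose replicates 1 to 3 and 932, 396 and 432 CPM in high glucose replicates 1 to 3. Replicate 1 was highest in both groups, and the groups overlapped over most of their range. The group means were 586 ± 212 and 587 ± 300 CPM (SD, n = 3), a log2 fold change of 0.00 ± 0.41 (edgeR adjusted p = 0.998). The 95% interval of -0.97 to 0.97 leaves room for nearly a doubling or halving. With the replicate block the estimate was -0.05 ± 0.19 and did not pass either.

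The 8 beta-cell markers summed to 32634, 25284 and 30223 CPM in low glucose replicates 1 to 3 and to 38710, 17279 and 20734 CPM in high glucose replicates 1 to 3, so replicate 1 was again the highest. Of the 8, 4 fell (Mafa, Slc30a8, Ucn3 and Pdx1) and none was called higher, beside 14.2% lower and 13.3% higher among all tested genes. Iapp had a higher value that did not pass (1.22, edgeR adjusted p = 0.0604). Ins1 (-0.43), Ins2 (-0.41) and Nkx6-1 (-1.01) had lower values that did not pass. As a share of the hormone and granule gene counts of its own library, G6pc2 made up 1.55%, 0.985% and 1.14% at low and 1.52%, 1.31% and 1.27% at high glucose. These shares overlapped. They carry no test.

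In low glucose replicates 1 to 3 G6pc3 had 12.8, 18.6 and 15.7 CPM. Its high glucose values were 18.8, 19.0 and 18.9 CPM. The high glucose libraries lay just above the highest low glucose one. The log2 fold change of 0.27 ± 0.18 did not pass (edgeR adjusted p = 0.289), and its 95% interval ran from -0.15 to 0.69. Per exonic length G6pc3 made up 2.60% ± 1.26 of the sum of both phosphatases without and 3.19% ± 1.25 with stimulating glucose (SD, n = 3 each).

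Slc37a4, the carrier gene, had 20.9, 19.1 and 16.3 CPM in low glucose replicates 1 to 3 and 11.2, 7.13 and 10.4 CPM in high glucose replicates 1 to 3. All high glucose libraries were below all low glucose ones. It fell by 0.97 ± 0.22 on the log2 scale (1.96-fold lower; edgeR adjusted p = 0.0175). This call was lost without low glucose replicate 1 (-0.88), low glucose replicate 2 (-0.95) or high glucose replicate 3 (-1.03). It was also lost when libraries were sized by the hormone and granule genes (-0.73), and under library totals, where the sign turned (0.17). Relative to the median of all genes, Slc37a4 was -0.99 with library totals, -1.03 with hormone and granule sizing and -0.99 with TMM.

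**Figure D3:**
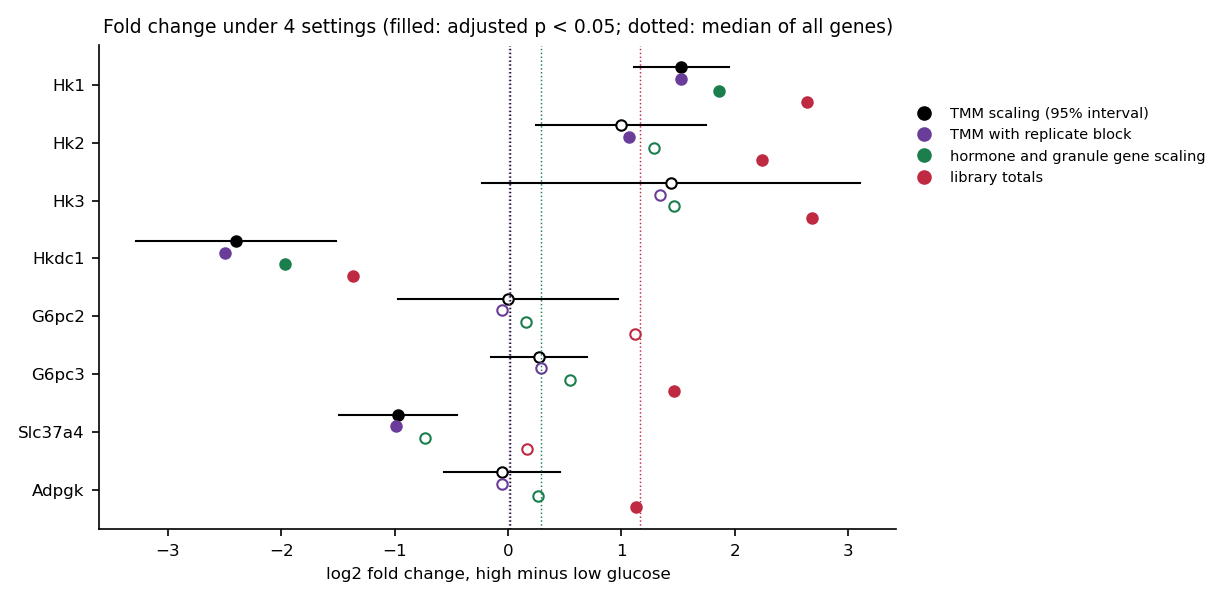
Log2 fold change (horizontal axis, high minus low glucose) of the 8 tested members under 4 settings, with the 95% interval for TMM scaling; filled points have adjusted p under 0.05 and dotted lines give the median of all genes under each setting. Hk1 and Hkdc1 are filled in every setting, and library totals move all 8 points to the right with the median.

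With library totals 5 members rose (Hk1, Hk2, Hk3, G6pc3 and Adpgk) where 59.7% of all genes did, and 1 fell (Hkdc1) where 4.49% did. The value of Adpgk there, 1.12, was below the median of all genes. When the libraries were sized by the hormone and granule genes, 1 member rose, Hk1 (1.86), and 1 fell, Hkdc1 (-1.97), with 7.52% of all genes higher and 7.50% lower.

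Ratios of 7 pairs of members within each library do not depend on any scaling. Of these, 2 had groups that did not overlap. The log2 ratio of Hkdc1 to G6pc2 went from between -3.95 and -3.35 to between -7.85 and -5.20, a difference of -2.46. That of Slc37a4 to G6pc2 went from between -5.30 and -4.42 to between -6.38 and -5.37, a difference of -0.94. Each gave p = 0.1 by an exact two-sided permutation test, the smallest that 3 against 3 libraries can give, or 0.35 after Benjamini-Hochberg adjustment over the 7. The ratio of Hk1 to G6pc2 was higher by 1.59 with overlapping groups (exact permutation p = 0.2, adjusted 0.467), and in high glucose replicate 1 it was lowest of its group. Hk1 to Hk2 differed by 0.46 (exact permutation p = 0.5, adjusted 0.70), and the other 3 pairs had exact permutation p-values of 0.3 (Hk2 to G6pc2), 0.6 (G6pc3 to G6pc2) and 1 (Adpgk to G6pc2). Taken within replicate numbers, as pairs, Hk1 to G6pc2 was higher at high glucose by 1.01, 1.47 and 2.27 in pairs 1 to 3. Hk2 to G6pc2 was higher by 1.48, 1.04 and 0.85, and G6pc3 to G6pc2 by 0.37, 0.073 and 0.56. Hkdc1 and Slc37a4 relative to G6pc2 were lower in all 3 pairs, and the remaining ratios, Hk1 to Hk2 and Adpgk to G6pc2, went both ways. An exact two-sided sign-flip permutation test over 3 pairs, added after seeing the data, gave p = 0.25 (adjusted 0.35) for each of the 5 ratios that went one way, the smallest it can give.

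**Figure D4:**
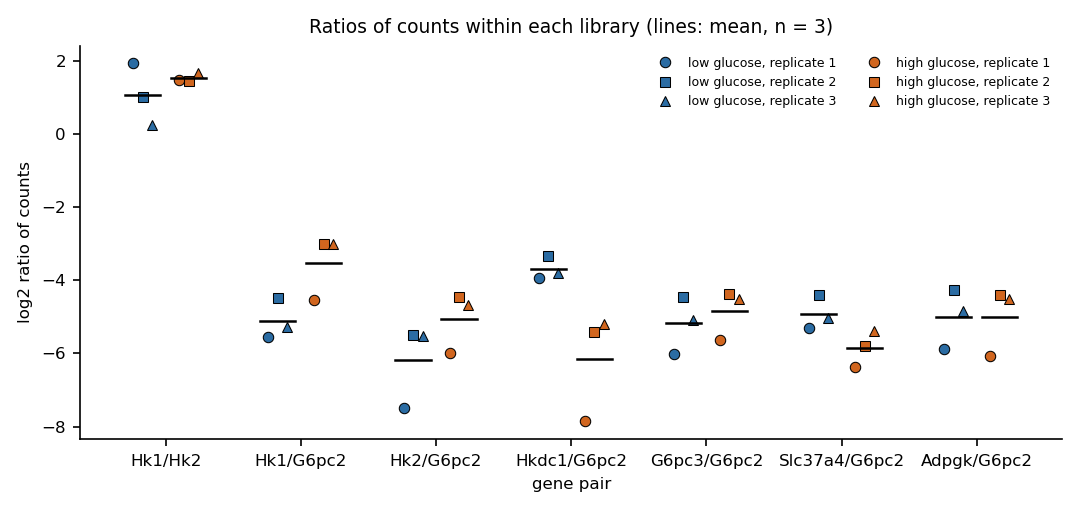
Log2 ratio of counts (vertical axis) for 7 gene pairs (horizontal axis) in each library, blue for low and orange for high glucose, with a line at the mean of 3. Hkdc1/G6pc2 and Slc37a4/G6pc2 are lower in all 3 high glucose libraries than in any low glucose library, and the Adpgk/G6pc2 groups lie over each other.

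Levels of different genes were compared as CPM per kilobase of exon. This length counts each base that is exonic in any annotated transcript, 8532 for Hk1 (20 transcripts) and 5132 for Hkdc1 (4 transcripts). It can exceed the length of the mRNA in the cells, so the order below and the shares above depend on it. At low glucose G6pc2 (297 ± 108, SD, n = 3) was followed by Hkdc1 (8.52 ± 1.60), G6pc3 (7.05 ± 1.30) and Slc37a4 (6.57 ± 0.804), whose ranges overlapped from each gene to the next. Then came Hk1 (1.93 ± 0.283), Adpgk (1.86 ± 0.387) and Hk2 (1.40 ± 0.582), again with neighbours that overlapped, and below them Hk3 (0.271 ± 0.126) and Gckr (0.0384 ± 0.0383). At high glucose the order after G6pc2 (297 ± 152) was G6pc3 (8.49 ± 0.0390), Hk1 (5.57 ± 0.791), Slc37a4 (3.35 ± 0.756), Hk2 (2.75 ± 0.283), Adpgk (1.78 ± 0.296), Hkdc1 (1.62 ± 0.765), Hk3 (0.742 ± 0.645) and Gckr (0.0297 ± 0.0256). There Slc37a4 overlapped with Hk2, Adpgk with Hkdc1, and Hkdc1 with Hk3. Hkdc1 thus went from the second place to the seventh and Hk1 from the fifth to the third.

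For each member with a mean of at least 10 CPM, the genes with the most similar pattern were taken from 8216 candidates, as the root mean square difference of centred log2 CPM over the 6 libraries, all of which share the same scaling. Nearest to Hk1 were Pgd (0.0778), which encodes an enzyme of the pentose phosphate route, Eif6 (0.102) and Mfsd10 (0.106). Nearest to Hkdc1 were Anpep (0.262), an aminopeptidase gene of brush borders, Misp (0.295) and Rnf43 (0.377), at larger distances than those of Hk1. The distance is not scaled to the size of a gene's own changes, so it does not rank the members by how closely they are followed. Among the genes closest to G6pc2 were the neuronal and endocrine genes Ank2 (0.111) and Ina (0.136). Slc37a4 was closest to Sema4a (0.125), Slc25a42 (0.128) and Phf1 (0.13). For Hk2 these were Hax1 (0.172), Ppif (0.181) and Eif2b3 (0.184). The flattest members had the closest neighbours, Slc48a1 (0.0526), Ints5 (0.0551) and Gtf2h5 (0.0574) for G6pc3, and Yipf3 (0.0443), Rbfa (0.0454) and Wdyhv1 (0.0536) for Adpgk.

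The routes that glucose 6-phosphate can take were followed with 6 lists of 50 genes in all, 49 of them tested. In edgeR's test 12 rose and 10 fell, beside 13.3% and 14.2% of all tested genes, and the median log2 fold change was 0.01, as for all genes. With library totals 34 rose and 3 fell, beside 59.7% and 4.49% of all tested genes. By list, the higher genes then numbered 6 toward glycolysis, 9 toward glycogen, 7 toward pentose phosphates, 7 among other sugar kinases, 2 among carriers and 3 among porins. Sizing the libraries by hormone and granule genes gave 9 higher and 5 lower, beside 7.52% and 7.50%. Leaving out low glucose replicate 2 gave 7 higher and 5 lower, beside 720 and 1040 of all 13996 tested genes. Leaving out high glucose replicate 3 gave 7 and 6, beside 811 and 1102. With high glucose replicate 2 left out it was 10 and 6, beside 1075 and 1394.

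Toward pentose phosphates and NADPH, 4 of 8 genes rose and none fell, beside 13.3% and 14.2% of all tested genes. The list median was 0.69 (2 rose on the hormone and granule scale). Pgd, the second dehydrogenase of the route, rose by 1.46 ± 0.19, from 64.1 ± 8.44 to 177 ± 27.6 CPM (SD, n = 3 each; edgeR adjusted p = 0.00234). G6pdx, which encodes the dehydrogenase that takes glucose 6-phosphate itself, rose by 0.87 ± 0.16, from 25.4 ± 4.16 to 46.5 ± 3.53 CPM. H6pd, its counterpart in the endoplasmic reticulum and a user of the same sugar phosphate pool as the phosphatases there, rose by 0.76 ± 0.15. The fourth was the transaldolase gene Taldo1 (1.26 ± 0.27), named after its value was seen, which did not pass without high glucose replicate 3 (1.12). On that scale G6pdx (1.15) and H6pd (1.03) did not pass, nor did H6pd without low glucose replicate 2 (0.71).

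Toward glycolysis, 2 of 11 genes rose and 3 fell, beside 13.3% and 14.2% of all tested genes, with a list median of 0.11. Pfkl, the liver-type phosphofructokinase gene, rose by 1.40 ± 0.22, from 32.3 ± 1.75 to 85.3 ± 24.3 CPM. The bifunctional enzyme genes that set fructose 2,6-bisphosphate moved in opposite directions, Pfkfb3 rising by 1.69 ± 0.23 and Pfkfb4 falling by 1.71 ± 0.25 on the log2 scale. Pfkfb4 did not pass with library totals (-0.59). The other 2 lower genes, named after their values were seen, were Pfkfb2 (-1.09 ± 0.28) and Fbp2 (-1.62 ± 0.46). The count of lower genes became 1 when low glucose replicate 1 or 2 or high glucose replicate 2 or 3 was left out, or on the hormone and granule scale, and 0 with library totals.

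Toward glycogen, 3 of the 11 tested genes rose and none fell, beside 13.3% and 14.2% of all tested genes, with a median of 0.03. Pgm1, a phosphoglucomutase gene, rose by 1.03 ± 0.16, from 28.5 ± 1.92 to 58.0 ± 10.1 CPM. Gys1, the glycogen synthase gene, rose by 1.5 ± 0.34, but not without low glucose replicate 1 (1.26) or 2 (1.53) or high glucose replicate 3 (1.38). Pgm2l1 rose by 1.14 ± 0.35 with an edgeR adjusted p of 0.0491, and with the replicate block (1.10, adjusted p = 0.0517) or without any one of 5 libraries it did not pass. With high glucose replicate 1 left out, 5 genes of the list rose and 1 fell. The count of higher genes was 1 when low glucose replicate 1, low glucose replicate 2 or high glucose replicate 3 was left out.

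Among 13 other sugar kinases and enzymes at the entry to hexosamines and mannose, 6 fell and 2 rose, with a median of -0.31. Among all tested genes 14.2% fell and 13.3% rose. Khk, the fructokinase gene, fell by 3.36 ± 0.37 on the log2 scale, from 34.9 ± 15.4 to 3.39 ± 0.504 CPM. Galk1, the galactokinase gene, fell by 1.95 ± 0.24. Pmm1, a phosphomannomutase gene, rose by 3.42 ± 0.45, from 5.68 ± 2.27 to 62.8 ± 27.7 CPM. The other higher gene was Gfpt2 (1.84 ± 0.57, edgeR adjusted p = 0.0495), named after its value was seen. The count of lower genes became 3 with low glucose replicate 2 left out or on the hormone and granule scale, and 2 with library totals. The count of higher genes became 1 whenever a library other than high glucose replicate 2 was left out, and also with DESeq2 size factors, limma-voom, the filter of 1 CPM in 3 libraries or the 20 most abundant genes removed. It became 7 with library totals. The intestinal markers whose levels are given with Hkdc1 fell beside this list too, and their part was not tested.

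Slc37a2, a relative of Slc37a4, fell by 3.39 ± 0.66 on the log2 scale (edgeR adjusted p = 0.0101), while Slc37a1 (0.56 ± 0.18) and the third carrier gene of the list did not pass. With the replicate block Slc37a1 rose (0.56, edgeR adjusted p = 0.0295). Of the mitochondrial porins, to which hexokinases 1 and 2 can bind, Vdac3 rose by 0.81 ± 0.19, and the other two did not pass. Vdac3 was not called when low glucose replicate 1 (0.73) or 2 (0.80) or high glucose replicate 2 (0.73) or 3 (0.75) was left out, or on the hormone and granule scale (1.15).

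**Figure D5:**
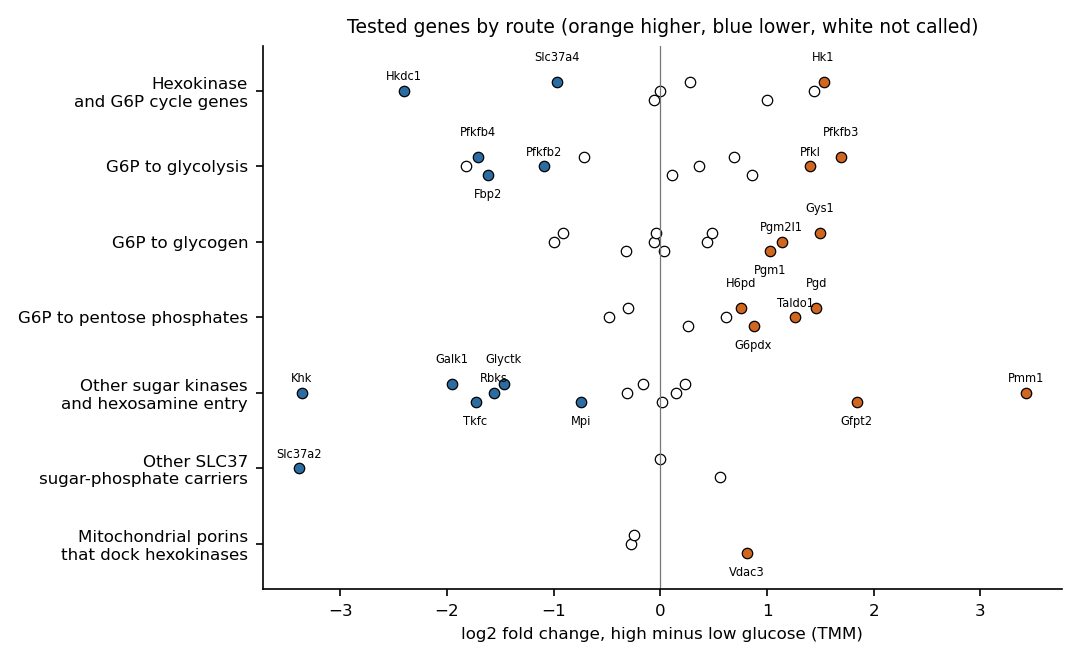
Log2 fold change (horizontal axis, high minus low glucose, TMM scaling) of the tested members and of the 49 tested genes on 6 related lists (vertical axis); orange points rose, blue points fell and white points did not pass adjusted p under 0.05. Called genes toward pentose phosphates and glycogen all lie to the right of 0, and those of the other lists of several called genes lie on both sides.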

How the data were processed

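The submitters' processing notes name STAR 2.7.3a, HTSeq 0.6.1p1 and the build GRCm38. The deposited values are raw counts of reads per gene. The annotation release, strand setting and read filters are not given in the sources used here. Per the labels' protocols, libraries used 500 ng of RNA, poly-A selection and 9 PCR cycles. Symbols, exon lengths and coordinates come from GENCODE M21 (GRCm38), and 495 of 46983 genes had no name. No row of totals was present.

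Samples were grouped and numbered as labelled. Counts were fitted with edgeR 4.0.16 in R 4.3.3 (TMM, filterByExpr with minimum count 10 and minimum total 15, quasi-likelihood F-test) on 13996 genes. The threshold was a Benjamini-Hochberg adjusted p under 0.05. An SE is the log2 fold change over the square root of F, and 95% intervals use its t quantile. Alternatives used DESeq2 1.42.0 and limma 3.58.1 (voom), other scalings and filters, a replicate block and each library left out. Leaving out both replicates 1, and the ratios within pairs, were added after seeing the data. Every pair of libraries differed beyond sampling noise (smallest chi-square per degree of freedom 17.7).

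Same-numbered libraries deviated together from their group means (correlations 0.40, 0.26 and 0.25, other pairs -0.31 to 0.07). These correlations are modest and replicate 1 stood apart in both groups, so they do not settle whether the numbers pair the libraries. No label states a pairing, and the main fit has no block.

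Members and lists were chosen with earlier results of these data known. All 9 members were described; from each list up to 3 called genes with the smallest p, and for each member the 3 genes of most similar pattern (prior count 2), were named, except 1 gene that is not reported here. Intervals from counts cover counting error only. Proteins are not shown here. Figures used matplotlib 3.10.9.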

Additional observations from a re-analysis of the deposited data

How the results depend on the processing

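Hk1 and Hkdc1 kept their direction and their call under each of the 15 settings tried and without both replicates 1, a setting chosen after seeing the data. With library totals 8349 of all tested genes were higher and 629 lower. With hormone and granule gene sizing the numbers were 1053 and 1050. Without both replicates 1 they were 2852 and 2813, and leaving out 1 library at a time gave 720 (without low glucose replicate 2) to 2780 (without high glucose replicate 1) higher and 1040 to 2822 lower, with the same libraries at both ends. Of the members, 5 were higher and 1 lower with library totals and 1 was lower with hormone and granule sizing. Hk2 made 2 higher with no filter, DESeq2, limma-voom, the replicate block, and without both replicates 1. With 1 library left out 1 to 2 were higher and 1 to 2 lower. On the pathway lists 34 genes were higher and 3 lower with library totals, and 5 were lower with hormone and granule sizing. There 7 to 14 were higher and 5 to 12 lower with 1 library left out, and without both replicates 1 16 were higher. Signs turned for 3 members. G6pc2, near 0 in the fit with TMM, was -0.0024 with DESeq2 size factors, -0.00056 without the 20 most abundant genes, -0.0095 with a filter of 1 CPM in 3 libraries, -0.045 with limma-voom, -0.17 without both replicates 1 and -0.50 to 0.34 with 1 library left out. Adpgk was 1.12 with library totals, 0.26 with hormone and granule sizing, 0.044 with no filter and -0.21 to 0.092 with 1 library left out. Slc37a4, lower with TMM, was 0.17 with library totals. The log2 ratio of G6pc3 to G6pc2 differed by -0.077 to 0.73 and that of Adpgk to G6pc2 by -0.45 to 0.54 with 1 library left out. Relative to the median of all genes, which was 1.16 with library totals, Slc37a4 was -0.99 and Adpgk -0.04 there. With TMM the same differences were -0.99 and -0.07. The cause of the other shifts was not tested. With the replicate block, which takes the numbers as pairs, G6pc2 was -0.051. Among the members the block changed no call but that of Hk2, and on the lists it changed those of Pgm2l1 (lost), Slc37a1 and Pfkp (higher) and Pfkm (lower). Depth limits Gckr. With 3 libraries a group all intervals are wide.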
